A study of Mus musculus with 12 samples.

Results

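RefSeq gives transcripts that it does not annotate as coding for protein an accession that begins with NR_, and messenger RNAs one that begins with NM_. The microarray used here carried 1426 probes, for 1267 gene names, whose listed accession begins with NR_. Of these, 741 probes (52%), for 656 gene names, gave a skin signal well above the local background on 3 or more of the 12 arrays, and these 741 are described below. They are set against the 21185 of 26639 NM_ probes (79.5%) that met the same rule, among 28838 kept probes in all. At the edge of the rule, 39 NR_ probes were well above background on exactly 3 arrays and were kept, and 50 on exactly 2 arrays were not. By the current RefSeq biotypes, 517 of the kept probes were for long non-coding RNAs, 158 for pseudogenes, 49 for genes since annotated as protein-coding and 17 for other classes, among them an snRNA, the RNase MRP RNA and the telomerase RNA.

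The study measured total RNA from the skin of male C57BL/6 mice about 8 weeks old, all injected intradermally and all sampled 24 h after the injection. Incised skin, with a sutured wound 1 cm long, received vehicle (PBS) or 100 nmol of a miR-29b mimic, named promiR-29 in the labels, at 72 h after the incision was made. In unwounded skin, called intact, the injections were PBS or antimiR-29, an inhibitor of miR-29, also at 100 nmol. The 4 groups held 3 arrays each, labelled as biological replicates, and each array compared skin RNA (Cy5) with a universal mouse reference RNA (Cy3). The mimic was therefore given only in incised skin and the inhibitor only in intact skin, and no group analysed here received an unrelated oligonucleotide. Every level below is a log2 ratio of skin over reference, every difference is a difference of such ratios with its standard error, and a probe is called changed at a Benjamini-Hochberg adjusted p under 0.05 over all kept probes in limma, 2-sided. Levels of different probes are not comparable with each other.

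Long non-coding RNAs are transcribed and often spliced and polyadenylated like messenger RNAs but act, where they are known to act, as RNA: some stay in the nucleus, some come from imprinted loci, some host microRNAs or snoRNAs in their introns, and antisense transcripts overlap a gene on the other strand. A processed pseudogene is a copy of a messenger RNA inserted back into the genome, so its transcript can resemble that of the parent gene. Several transcripts first filed as non-coding were later found to encode short proteins. MicroRNAs such as miR-29, best known for repressing collagen and other matrix genes, pair with target RNAs through their seed, bases 2 to 8, which the mimic supplies and the inhibitor is meant to block.

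The mature miR-29 sequences of the RefSeq table (GRCm38.p6) are shown first because they are what the mimic and the inhibitor act through, with the seed in capitals; miR-29a, miR-29b and miR-29c share it.
miR-29a-3p: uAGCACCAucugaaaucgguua
miR-29b-3p: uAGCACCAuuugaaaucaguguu
miR-29c-3p: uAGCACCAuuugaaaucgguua

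The probe sequences below, read from the array's own annotation with mm9 positions, are those on which the results turn: a transcript that rose in both treated groups and after incision (Mirt1), with Mirt2 beside it, a muscle transcript that fell in both treated groups (Mrln), lncRNAs whose probes moved differently along 1 transcript (Tug1 and Norad), rises with the inhibitor (Rbakdn, of smallest p among all members, and Gm10791, called at both probes), and, after incision, the largest rise (4933438K21Rik) and the fall of a well-studied nuclear lncRNA (Malat1). Each is a 60-base probe, in lower case, 5′ to 3′. Capitals mark a polyadenylation signal (AATAAA or ATTAAA) where the probe holds one, except in Rbakdn. There they mark the longest run of letters shared with a mature miR-29, and its AATAAA is left in lower case.
Mirt1, upstream (chr19:53526151-53526210, minus strand): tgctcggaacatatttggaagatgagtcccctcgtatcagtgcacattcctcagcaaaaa
Mirt1, downstream (chr19:53517751-53517810, minus strand): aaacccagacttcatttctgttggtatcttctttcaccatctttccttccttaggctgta
Mirt1, between them, filed as 5830416P10Rik without an NR_ accession (chr19:53518504-53518563, minus strand): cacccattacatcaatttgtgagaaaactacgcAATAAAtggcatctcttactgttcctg
Mirt2 (chr15:76097239-76097298, minus strand): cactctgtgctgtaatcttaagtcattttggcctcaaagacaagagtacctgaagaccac
Mrln (chr10:69682319-69682378, plus strand): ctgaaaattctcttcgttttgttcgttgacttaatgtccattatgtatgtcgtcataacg
Tug1, upstream (chr11:3544194-3544253, minus strand): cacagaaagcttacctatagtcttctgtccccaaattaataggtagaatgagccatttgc
Tug1, middle (chr11:3542143-3542202, minus strand): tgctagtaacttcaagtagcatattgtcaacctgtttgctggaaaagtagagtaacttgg
Tug1, downstream (chr11:3540471-3540530, minus strand): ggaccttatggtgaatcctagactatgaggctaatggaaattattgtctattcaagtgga
Norad, probe 1 (chr2:156218281-156218340, minus strand): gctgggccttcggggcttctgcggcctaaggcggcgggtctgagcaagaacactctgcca
Norad, probe 2 (chr2:156217576-156217635, minus strand): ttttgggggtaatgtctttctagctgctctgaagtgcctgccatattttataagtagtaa
Norad, probe 3 (chr2:156216167-156216226, minus strand): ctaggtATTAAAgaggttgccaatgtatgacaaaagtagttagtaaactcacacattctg
Norad, probe 4 (chr2:156214413-156214472, minus strand): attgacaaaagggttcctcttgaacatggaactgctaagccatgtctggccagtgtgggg
Rbakdn (chr5:143926459-143926518, minus strand): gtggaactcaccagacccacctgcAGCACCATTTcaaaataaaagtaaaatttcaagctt
Gm10791, upstream (chr16:84979150-84979209, plus strand): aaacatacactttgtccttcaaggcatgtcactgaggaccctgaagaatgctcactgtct
Gm10791, downstream (chr16:84979242-84979301, plus strand): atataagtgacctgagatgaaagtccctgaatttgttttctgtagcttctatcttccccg
4933438K21Rik (chr4:145892120-145892179, minus strand): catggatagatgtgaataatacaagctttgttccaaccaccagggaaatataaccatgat
Malat1 (chr19:5795713-5795772, minus strand): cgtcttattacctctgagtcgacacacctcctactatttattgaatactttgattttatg

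On the 12 arrays, 65.6% to 73.8% of all probes and 42.7% to 53.1% of the NR_ probes were well above background, and 0 spots were saturated. The keratins Krt5, Krt14, Krt1 and Krt10, which define the epidermis, were well above background on all 12 arrays. Over the NR_ probes the median correlation of intact PBS 3 with the other arrays of its own group was 0.891, the lowest of the 12, against 0.923 or more for each other array with its own group. Intact PBS 2 had a median hair follicle marker level (log2 ratios, each centred on its mean over the 12 arrays) of 3.65, against -0.574 to -0.119 on the other 11 arrays. The arrays lay on 3 slides: slide 1 carried mimic 1 beside all incised PBS arrays, slide 2 held mimic 2, mimic 3, intact PBS 1 and intact PBS 2, and slide 3 held intact PBS 3 and the antimiR-29 arrays.

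The first comparison was between the classes. The share of transcripts detected was smaller for NR_ than for NM_ probes in each group: 620 of 1426 NR_ probes (43.5%) were well above background on all 3 incised PBS arrays, 605 (42.4%) in the mimic group, 584 (41%) in intact PBS and 537 (37.7%) in the antimiR-29 group, while the NM_ share ran from 74.3% down to 69.8%. Among all probes of each class on the array, 35.8% of the NR_ and 14.3% of the NM_ probes were well above background on 0 arrays. Kept NR_ and NM_ probes had close median ratios, 0.055 and 0.0613 log2, and close median residual SDs over replicates, 0.142 and 0.15. The median size of the difference, called or not, was 0.106 log2 for NR_ and 0.116 for NM_ probes under the mimic, 0.134 and 0.165 under antimiR-29, and 0.176 and 0.19 after incision.

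With the mimic, 3 of 741 NR_ probes (0.405%) were called, 1 higher and 2 lower, against 0.605% of NM_ probes and a background of 0.503% over all kept probes. With antimiR-29, 63 NR_ probes (8.5%), for 58 gene names, were called, against 11.8% of NM_ probes and a background of 11.1%. After incision, compared in the PBS groups, 99 NR_ probes (13.4%), for 98 gene names, were called, against 16% of NM_ probes and a background of 15.2%. The classes differed more in the falls than in the rises: under antimiR-29, 39 NR_ probes (5.26%) rose and 24 (3.24%) fell, while 5.41% of NM_ probes rose and 6.43% fell (all kept probes, 5.08% and 6.03%). After incision 68 NR_ probes (9.18%) rose and 31 (4.18%) fell, against 9.55% and 6.49% of NM_ probes (all kept probes, 9.58% and 5.6%). Among probes well above background on all 12 arrays the classes were nearer, with 11.4% of NR_ and 12.8% of NM_ probes called under antimiR-29 and 15.5% and 17.4% after incision. The share of NR_ probes whose groups did not overlap was near the background under the mimic (23.1% against 23.2%) and after incision (34.5% against 35%), and below it under antimiR-29 (23.1% against 26.9%). These shares are descriptions, and the difference between the classes was not tested. The split of the antimiR-29 calls by direction depended on single arrays. NR_ rises and falls were 22 and 24 without intact PBS replicate 1 and 21 and 25 without antimiR-29 replicate 1. They were 19 and 19 without antimiR-29 replicate 2, and each other array left out gave more rises than falls. With slide as a fixed term they were 32 and 30. The counts moved with single arrays: without antimiR-29 replicate 3, 34 NR_ probes were called under antimiR-29, and 38 without replicate 2; without incised PBS replicate 1, 56 were called after incision, and 62 without replicate 3. The mimic count ran from 0, without incised PBS replicate 1 or 3, to 7, without intact PBS replicate 3; it was 1 without mimic replicate 2 and 6 without intact PBS replicate 2.

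**Figure D1:**
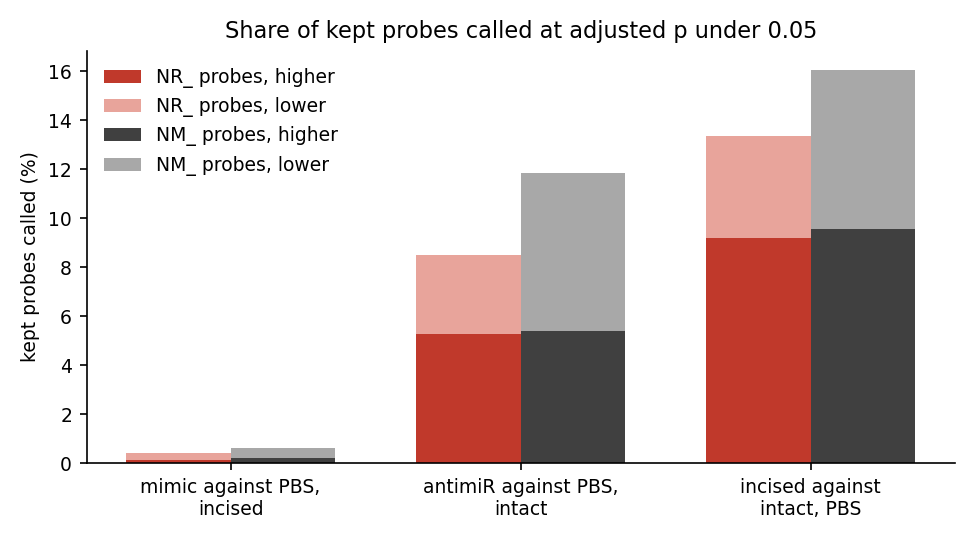
Share of kept probes called higher or lower, in percent (vertical axis), for NR_ and NM_ probes in each of the 3 comparisons. The NR_ bars reach 0.405%, 8.5% and 13.4% and the NM_ bars 0.605%, 11.8% and 16%, and the shorter NR_ bars come mostly from the part called lower.

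The mimic comparison asked which non-coding transcripts changed when miR-29b was added to incised skin. Mirt1, a lncRNA first named for its induction after myocardial infarction, rose, and Mrln and 2310040G24Rik fell; these were the 3 NR_ probes called. At its upstream probe Mirt1 had ratios of -0.06, 0.01 and -0.27 in incised PBS and 0.97, 1.36 and 1.45 with the mimic. The mimic arrays were all above the PBS arrays, by 1.37 ± 0.14 log2 (adjusted p = 0.0101). In intact skin the same probe read -1.24, -1.22 and -1.19 with PBS and -0.67, -0.26 and -0.28 with antimiR-29. Those groups did not overlap either, so Mirt1 was higher with the inhibitor too, by 0.81 ± 0.14 (adjusted p = 0.00496), and it was 1.11 ± 0.14 higher in incised than in intact PBS skin (adjusted p = 0.00118). The mimic and incision comparisons share the incised PBS arrays, and the antimiR-29 and incision comparisons share the intact PBS arrays.

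The 3 probes along Mirt1 did not read alike. The middle probe, which is not a member by its accession, had ratios of -0.80, -0.64 and -0.70 in incised PBS and 0.21, 0.75 and 0.70 with the mimic, a rise of 1.26 ± 0.15 (adjusted p = 0.0102). Its intact PBS values were -0.99, -0.72 and -1.12 and its antimiR-29 values -0.41, -0.74 and -0.50, which overlap (0.39 ± 0.15, adjusted p = 0.136), and incision gave 0.23 ± 0.15 (adjusted p = 0.34). The downstream probe was dim, well above background on 1 incised PBS, 3 mimic, 1 intact PBS and 0 antimiR-29 arrays, and all its ratios lay between -0.22 and 0.29. Its differences were 0.09 (adjusted p = 0.735), 0.07 (adjusted p = 0.66) and 0.26 ± 0.08 (adjusted p = 0.0508) in the mimic, antimiR-29 and incision comparisons. The rise with the mimic was thus seen at the upstream and middle probes, and the rise with the inhibitor and after incision passed the test at the upstream probe only; whether the probes differ was not tested.

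Mirt2, a further lncRNA of that naming, read 1.43, 1.04 and 1.05 in incised PBS and 1.73, 2.31 and 1.93 with the mimic, groups that do not overlap, but the difference of 0.82 ± 0.17 missed the threshold (adjusted p = 0.0727). In intact skin it read 0.28, 0.41 and 0.53 with PBS and 1.31, 0.98 and 0.81 with antimiR-29, and it rose by 0.63 ± 0.17 (adjusted p = 0.041). It was also higher after incision, by 0.76 ± 0.17 (adjusted p = 0.0148). Its inhibitor call was lost for 7 of the 12 arrays left out and with slide as a fixed term (0.51, adjusted p = 0.187), and its incision call without incised PBS replicate 1. The median neutrophil marker level was 0.437 to 0.706 with the mimic against 0.198 to 0.388 in incised PBS, and -0.771 to 0.086 with antimiR-29 against -0.715 to -0.567 in intact PBS. With the mimic 0 of 6 neutrophil markers were called, and with antimiR-29 1 of 6 was called higher. The part of these cells in the values of Mirt1 and Mirt2 was not tested. In bulk skin, fewer cells of a type and less RNA per cell cannot be told apart.

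**Figure D2:**
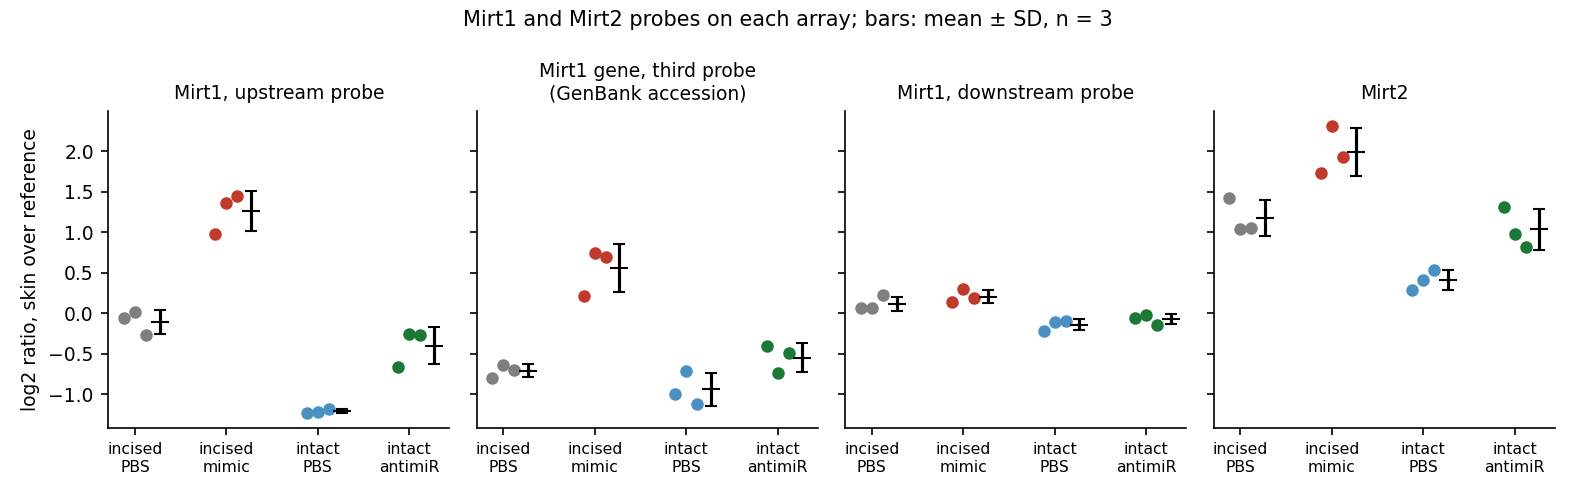
Log2 ratio of skin over reference (vertical axis) on each of the 12 arrays, by group, for the 3 Mirt1 probes and Mirt2; points are arrays and bars the mean ± SD of 3 arrays. The upstream Mirt1 probe is lowest in intact PBS and highest with the mimic, and the dim downstream probe stays between -0.22 and 0.29.

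Mrln, filed as non-coding on this array, encodes myoregulin, a small protein that inhibits the calcium pump of skeletal muscle. It read 3.91, 3.49 and 3.75 in incised PBS and 2.34, 2.11 and 1.87 with the mimic, without overlap, and fell by 1.61 ± 0.20 log2 (adjusted p = 0.0101). In intact skin it read 3.94, 3.90 and 4.31 with PBS and 2.71, 3.23 and 3.43 with antimiR-29, again without overlap, and fell by 0.93 ± 0.20 (adjusted p = 0.0127). The incision itself gave -0.33 ± 0.20 (adjusted p = 0.276). The median level of 7 skeletal muscle markers was lower in both treated groups. It was 0.189 to 0.282 in incised PBS against -0.413 to -0.11 with the mimic. In intact skin it was 0.115 to 0.374 with PBS against -0.288 to -0.097 with antimiR-29. In each of these comparisons 2 of the 7 markers were called lower. After incision 2 of the 7 were called higher, at a median difference of 0.053 log2. The part of muscle in the Mrln values was not tested. The lncRNA 2310040G24Rik read 2.88, 2.45 and 2.88 in incised PBS and 1.93, 1.44 and 1.88 with the mimic, without overlap, and fell by 0.99 ± 0.17 (adjusted p = 0.039); with antimiR-29 it differed by 0.08 ± 0.17 (adjusted p = 0.835).

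The next lncRNAs by p missed the threshold under the mimic. 5830428M24Rik read -2.55, -2.31 and -2.26 in incised PBS and -1.97, -1.41 and -1.46 with the mimic (0.76 ± 0.15, adjusted p = 0.0583), and 4933432I03Rik differed by 0.44 (adjusted p = 0.0854). On the negative side, 0610009L18Rik differed by -0.72 (adjusted p = 0.0754) and Firre, an X-linked lncRNA of nuclear organisation, by -0.40 (adjusted p = 0.0815), while a further Firre probe gave -0.08 (adjusted p = 0.83). Within slide 1, the only slide with both incised groups, the single mimic array minus the PBS mean was 1.08 for Mirt1, -1.38 for Mrln and -0.81 for 2310040G24Rik, the same signs as over all slides. With slide as a fixed term these were the estimates, and none of the 3 calls held (adjusted p = 0.257, 0.28 and 0.574). All 3 also lost their call when incised PBS replicate 1 or 3 was left out, and Mrln and 2310040G24Rik when mimic replicate 2 was; 2310040G24Rik lost it for 8 of the 12 arrays.

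The inhibitor comparison asked the reverse question in intact skin, and 63 NR_ probes were called, with a median size of 0.57 log2 and a range of 0.28 to 1.62; 6 exceeded 1 log2. Of 517 lncRNA probes 31 rose and 12 fell (8.32% called), and of 158 pseudogene probes 6 rose and 9 fell (9.49%). Of 49 probes for genes now called protein-coding 0 rose and 3 fell (6.12%), and of 17 in other classes 2 rose (11.8%). The share called over all kept probes was 11.1%. All 63 differences had the same sign within slide 3, which sets the antimiR-29 arrays against intact PBS 3 and so reuses arrays behind the calls. With slide as a fixed term 62 NR_ probes were called, 28 of them among the 63. Melanocyte markers moved with the inhibitor: 2 of 4 were called higher, and their median level was 0.26 to 1.027 with antimiR-29 against -1.039 to -0.2 in intact PBS. Their part in the results was not tested. The rise with the smallest p was that of Rbakdn, a lncRNA named for its place downstream of the zinc finger gene Rbak. It read 0.37, 0.45 and 0.36 in intact PBS and 1.42, 1.72 and 1.63 with antimiR-29, while all 6 incised arrays lay between -0.16 and 0.08. The inhibitor arrays were far above all others, by 1.20 ± 0.09 log2 over intact PBS (adjusted p = 6.04e-05); within slide 3 the difference was 1.23. Rbakdn was also lower after incision, by -0.42 ± 0.09 (adjusted p = 0.0131), and differed by 0.05 ± 0.09 with the mimic (adjusted p = 0.889).

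Both probes of the lncRNA Gm10791 rose. The downstream probe read 0.29, 0.12 and 0.15 in intact PBS and 0.97, 1.15 and 1.13 with antimiR-29 (0.90 ± 0.08, adjusted p = 0.000171), and the upstream probe -0.03, 0.05 and 0.12 and then 0.98, 0.89 and 0.72 (0.81 ± 0.09, adjusted p = 0.000478). Neither pair of groups overlapped, and on the incised arrays these probes read between 0.22 and 0.41 and between -0.12 and 0.44. Rnu2-10, a copy of the U2 snRNA of the spliceosome, read -0.87, -0.88 and -0.57 in intact PBS and 0.18, 0.40 and 0.12 with antimiR-29, where it rose by 1.00 ± 0.16 (adjusted p = 0.00325). U2 copies are near-identical, so which of them this probe reads is uncertain.

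Further rises included AU022793, AI662270 and Slfn10-ps, which were higher after incision too. AU022793 read -2.36, -2.13 and -2.40 in intact PBS, -1.46, -0.90 and -0.98 with antimiR-29, and -1.07, -1.01 and -1.02 in incised PBS. Its differences were 1.18 ± 0.25 with antimiR-29 (adjusted p = 0.0122) and 1.26 ± 0.25 after incision (adjusted p = 0.00799); the first was lost without antimiR-29 replicate 2. AI662270 read -1.19, -1.09 and -1.51 in intact PBS, -0.15, -0.06 and -0.52 with antimiR-29, and -0.17, 0.02 and -0.35 in incised PBS. It rose by 1.02 ± 0.16 (adjusted p = 0.00238) and by 1.09 ± 0.16 (adjusted p = 0.0019), and in both cases every treated or incised array was above every intact PBS array. Slfn10-ps, a pseudogene of the interferon-inducible Schlafen family, rose by 0.92 ± 0.23 (adjusted p = 0.0255) and by 1.19 ± 0.23 (adjusted p = 0.00672); members of that family are alike in sequence, so the source of its signal is uncertain. Gm8884 rose by 0.90 (adjusted p = 0.0278) under the inhibitor. Leaving out single arrays ended the inhibitor calls of Slfn10-ps and Gm8884 for 4 of 12 each. Dnm3os, the host of miR-199a and miR-214 on the strand opposite Dnm3, rose by 0.73 ± 0.16 at its upstream probe (adjusted p = 0.0143), while its downstream probe gave 0.10 ± 0.15 (adjusted p = 0.728).

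Among the falls the pseudogene 1700022A21Rik changed most. It read 0.22, 0.43 and 0.36 in intact PBS and -0.90, -1.47 and -1.50 with antimiR-29, without overlap, a fall of 1.62 ± 0.15 log2 (adjusted p = 0.000157); with the mimic it differed by -0.44 ± 0.15 (adjusted p = 0.253). Gm11213, now annotated as protein-coding, read 0.32, 0.42 and 0.26 and then -0.45, -0.69 and -0.89, a fall of 1.01 ± 0.11 (adjusted p = 0.000304). Phxr4 read 0.22, 0.24 and 0.17 and then -0.42, -0.46 and -0.38, a fall of 0.63 ± 0.07 (adjusted p = 0.000409). Outside the inhibitor group Phxr4 stayed between 0.02 and 0.24 on all 9 arrays. Other called falls were 8430431K14Rik (-0.84), 4932412D23Rik (-0.73, with 0.05 at its other probe), 4933417G07Rik (-0.68) and Tdg-ps2 (-0.68). With slide as a fixed term the calls of 4932412D23Rik (-0.37, adjusted p = 0.34) and Tdg-ps2 (-0.42, adjusted p = 0.151) did not hold, while those of 1700022A21Rik (-1.65, adjusted p = 0.00522) and Gm11213 (-0.93, adjusted p = 0.0101) did. Leaving out single arrays ended the call of 4932412D23Rik for 5 of 12.

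**Figure D3:**
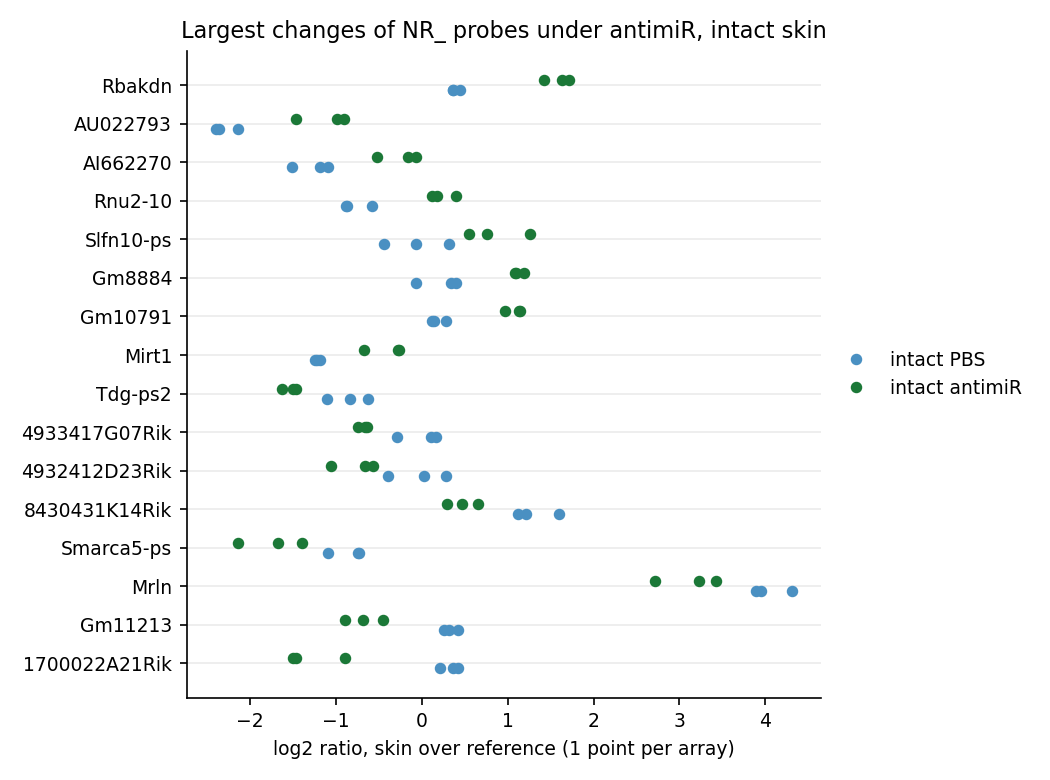
Log2 ratio of skin over reference (horizontal axis) for the 16 NR_ probes named by the largest called rises and falls under antimiR-29, with 1 point for each array and the intact PBS and antimiR-29 groups in separate colours. The probes were chosen among those whose groups do not overlap. By that choice the 3 antimiR-29 points of each row lie wholly right (rises) or left (falls) of the 3 intact PBS points. 1700022A21Rik and Rbakdn are among the widest gaps.

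Several transcripts carried more than 1 kept probe, and a call at 1 probe was often not shared by the others. Of 70 gene names with several kept NR_ probes, antimiR-29 gave a call at any probe for 17 and at all probes for 3. Incision gave 15 and 1, and the mimic 1 and 0 (all kept probes called: 11.1%, 15.2% and 0.503%). Those shares are per probe, while a name counts once for several probes, so they are not directly comparable with the counts. All probes of a name had the same sign for 47 of the 70 under antimiR-29, 40 after incision and 47 under the mimic. Tug1, a lncRNA of nucleus and cytoplasm, is an example. Its upstream probe read 0.04, -0.10 and 0.32 in intact PBS and 0.34, 0.58 and 0.62 with antimiR-29, and rose by 0.43 ± 0.11 (adjusted p = 0.0364). Its middle probe read -0.09, 0.04 and -0.20 and then -0.64, -0.74 and -0.82, and fell by 0.65 ± 0.13 (adjusted p = 0.0103). Its downstream probe differed by 0.20 ± 0.10 (adjusted p = 0.24). After incision the middle probe read 1.11, 1.10 and 1.18 and rose by 1.21 ± 0.13 (adjusted p = 0.000483), while the outer probes gave -0.18 (adjusted p = 0.327) and -0.12 (adjusted p = 0.463). So no single direction describes Tug1: the upstream call was lost without any of 8 arrays in turn, and the middle calls held for all 12. With slide as a fixed term the middle probe gave -0.54 under antimiR-29 (adjusted p = 0.0733) and the upstream probe 0.19 (adjusted p = 0.401).

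Norad, an abundant cytoplasmic lncRNA that binds Pumilio proteins, had 4 probes in transcript order. With antimiR-29 they differed by -0.33 ± 0.13 (adjusted p = 0.134), -0.65 ± 0.11 (adjusted p = 0.00425), -0.34 ± 0.11 (adjusted p = 0.0686) and 0.05 ± 0.09 (adjusted p = 0.775). Only the second probe was called: it read -0.36, -0.12 and -0.14 in intact PBS and -0.72, -0.83 and -1.01 with antimiR-29, without overlap. Gas5, a snoRNA host linked to growth arrest, was called at its most downstream probe (0.34 ± 0.10, adjusted p = 0.0418), while its other probes gave -0.31 (adjusted p = 0.144) and -0.22 (adjusted p = 0.466); that call was lost for 9 of 12 arrays left out. Airn, the antisense transcript of the imprinted Igf2r locus, fell by 0.53 ± 0.10 (adjusted p = 0.0057) and rose after incision by 0.49 ± 0.10 (adjusted p = 0.00775) at its upstream probe, and differed by 0.05 in both at the other (adjusted p = 0.79 and 0.776). Over 67 genes with probes on 1 strand of 1 chromosome, the upstream minus the downstream difference had a median of 0.012 under antimiR-29, and 10 genes had probes apart by over 0.5 log2. That count was 3 under the mimic and 7 after incision.

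Probes that hold a polyadenylation signal were counted as well. Of the 39 NR_ probes that rose under antimiR-29, 9 held one (23.1%), and of the 24 that fell, 2 (8.33%), against 21.2% of those not called. The NM_ probes showed the same order, at 26.1%, 8.15% and 18.6%. After incision the NR_ shares were 19.1% of rises and 29% of falls (9 of 31), against 20.7% of those not called. The NM_ shares there were 18.5% of rises, 16.6% of falls and 18.5% of those not called, so the classes did not show the same order. The part of transcript ends in these results was not tested.

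**Figure D4:**
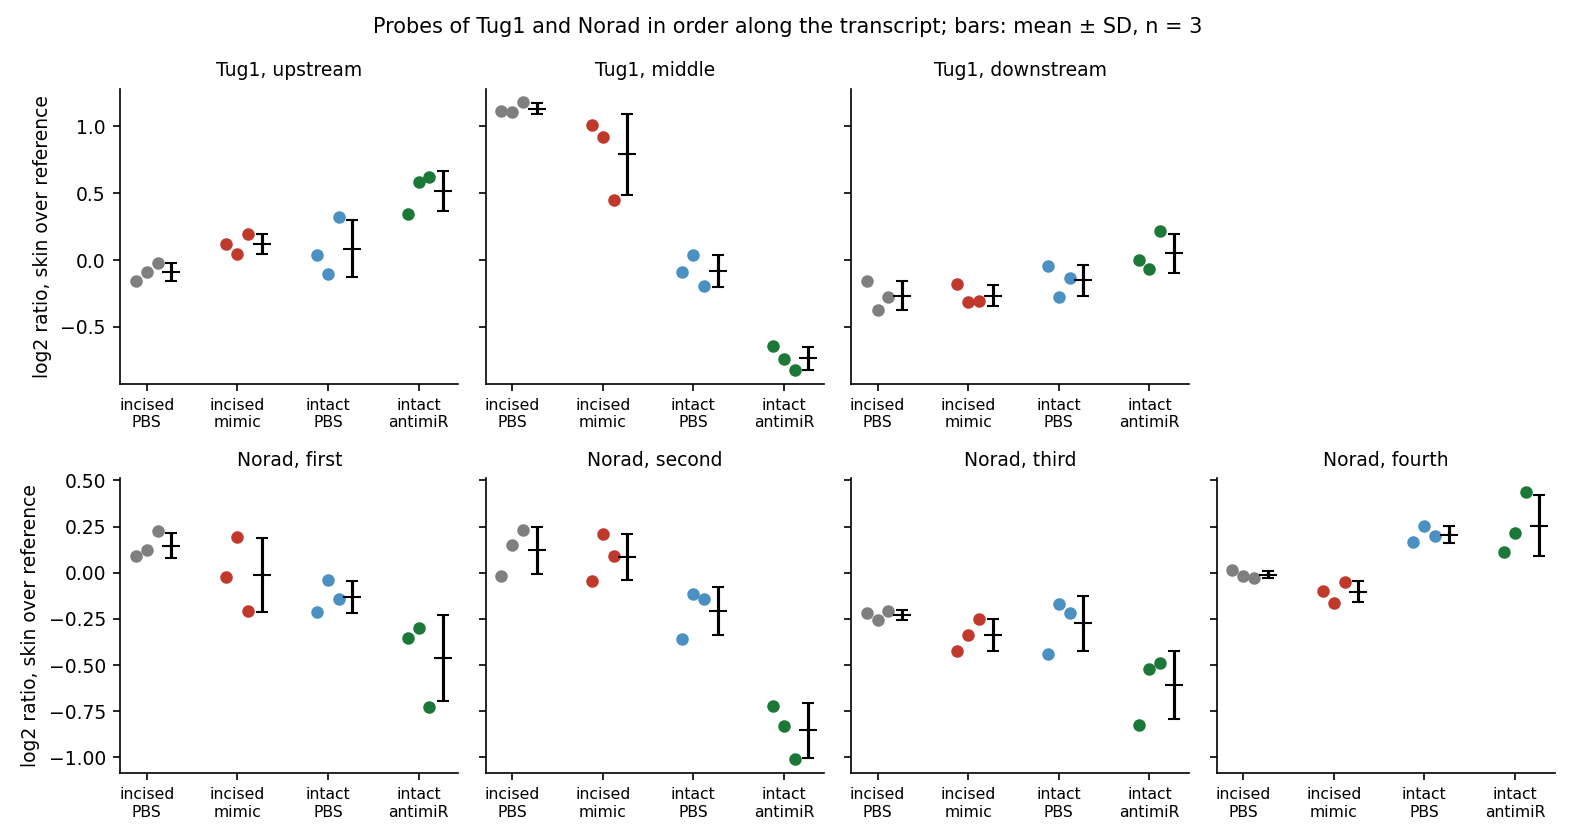
Log2 ratio of skin over reference (vertical axis) on each array, by group, for the 3 Tug1 probes and the 4 Norad probes in transcript order; points are arrays and bars the mean ± SD of 3 arrays. The middle Tug1 probe is high on the incised arrays and lowest with antimiR-29, unlike the outer probes, and the second Norad probe is lowest with antimiR-29.

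The incision comparison, incised against intact skin under PBS, had the most calls: 99, with a median size of 0.53 log2 and a range of 0.27 to 2.38, of which 11 exceeded 1 log2. Of 517 lncRNA probes 46 rose and 23 fell (13.3% called), and of 158 pseudogene probes 18 rose and 3 fell (13.3%). Of 49 probes for genes now called protein-coding 2 rose and 4 fell (12.2%), and of 17 in other classes 2 rose and 1 fell (17.6%). The share called over all kept probes was 15.2%. No slide held both groups, so the incision and the slide cannot be told apart within a slide, and with slide as a fixed term 0 of these calls held, with 77 NR_ probes at an unadjusted p under 0.05 in limma. The estimates of the called named probes kept their signs with that term. Some lay near their values without it, such as 2.27 for 4933438K21Rik and -0.92 for Malat1. Others were smaller in size, such as 0.64 for AU022793 and -0.33 for Gm16894. Markers of immune cells moved with the incision: 4 of 6 macrophage and 2 of 6 neutrophil markers were called higher, with median macrophage marker levels of 0.279 to 0.427 in incised PBS and -0.369 to -0.16 in intact PBS, and neutrophil levels of 0.198 to 0.388 and -0.715 to -0.567. Their part in the results that follow was not tested.

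4933438K21Rik showed the largest rise. It read 3.12, 2.52 and 2.22 in incised PBS and 0.38, 0.27 and 0.08 in intact PBS, and the groups were 2.38 ± 0.20 log2 apart (adjusted p = 0.000245). It was as high with the mimic, at 2.51, 2.65 and 2.31, so it was raised on all 6 incised arrays and low on all 6 intact ones. Gm17821, a pseudogene probe placed on unordered Y sequence, read 2.48, 1.82 and 1.85 against 0.75, 0.72 and 0.59, a rise of 1.37 ± 0.15 (adjusted p = 0.000608). The NR_ transcript variant of Bmp1, a protease that trims procollagen, rose by 1.25 ± 0.20 (adjusted p = 0.00315), while the NM_ probes of that gene gave 0.55 (adjusted p = 0.0329) and 0.40 (adjusted p = 0.0854). Fbxl12os, opposite Fbxl12, read 1.98, 1.41 and 1.46 against 0.45, 0.43 and 0.33 and rose by 1.22 ± 0.17 (adjusted p = 0.0015); its partner differed by -0.02 (adjusted p = 0.94).

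Malat1, an abundant nuclear lncRNA of splicing speckles, was lower after incision. It read -1.58, -1.62 and -1.64 in incised PBS and -0.47, -1.12 and -0.65 in intact PBS, without overlap, a fall of 0.87 ± 0.14 (adjusted p = 0.00291). With the mimic it read -1.19, -1.32 and -1.26, all above incised PBS, but the difference of 0.36 ± 0.14 missed the threshold (adjusted p = 0.314). Neat1, the scaffold of nuclear paraspeckles and the neighbour of Malat1, differed by -0.18 ± 0.11 (adjusted p = 0.301) and lay between 2.37 and 2.78 on the 11 arrays that measured it. AI854703 read 0.87, 0.79 and 0.78 in incised PBS, 1.56, 1.90 and 1.71 in intact PBS and 2.71, 2.35 and 2.18 with antimiR-29. It was lowest on the incised and highest on the inhibitor arrays, with a fall of 0.91 ± 0.13 after incision (adjusted p = 0.00212) and a rise of 0.69 ± 0.13 with antimiR-29 (adjusted p = 0.00848).

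Other falls after incision were 5430427M07Rik (-0.89, adjusted p = 0.0476), which was not well above background on any incised PBS array, Smim41 (-0.72), B230206H07Rik (-0.71), 1810058I24Rik (-0.69, with -0.05 at its other NR_ probe), Gm16894 (-0.68) and 3110070M22Rik (-0.67, with 1 array missing). Smim41 and 1810058I24Rik are now annotated as protein-coding. Leaving out single arrays ended the call of 5430427M07Rik for 9 of 12 and of B230206H07Rik for 4, and that of Gm16894 without incised PBS replicate 2.

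**Figure D5:**
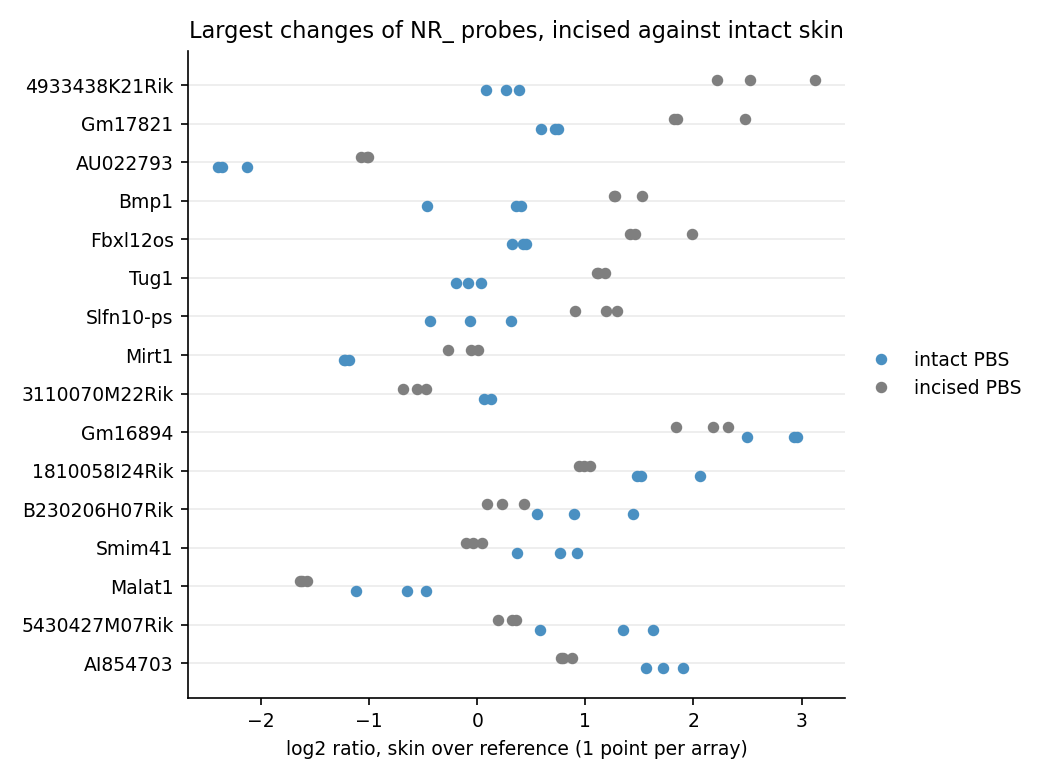
Log2 ratio of skin over reference (horizontal axis) for the 16 NR_ probes named by the largest called rises and falls after incision, with 1 point for each array and the incised PBS and intact PBS groups in separate colours. The probes were chosen among those whose groups do not overlap. 4933438K21Rik has the widest gap, and Malat1 lies at -1.64 to -1.58 in incised PBS against -1.12 to -0.47 in intact PBS.

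Transcripts were also followed by class. Of 9 nuclear and general lncRNA genes with 16 kept probes, 0 were called under the mimic, 2 probes rose and 2 fell under antimiR-29 and 1 rose and 1 fell after incision (all kept probes called: 0.503%, 11.1% and 15.2%). Besides Tug1 and Norad, the antimiR-29 calls included Dleu2, the host of miR-15a and miR-16, which read 0.49, 0.75 and 0.52 in intact PBS and 1.05, 1.36 and 1.09 with antimiR-29 and rose by 0.58 ± 0.14 (adjusted p = 0.0271); 4 single arrays, and slide as a fixed term (0.64, adjusted p = 0.072), ended that call. The median difference of the list was 0.062 log2, against -0.004 over all kept probes.

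The imprinted lncRNAs had 7 genes with 12 kept probes. After incision 4 probes rose and 0 fell (all kept probes: 9.58% and 5.6%), with a median of 0.361 against -0.001 over all kept probes. Meg3, the maternally expressed RNA of the Dlk1 locus, read 1.85, 2.04 and 1.90 in incised PBS and 1.16, 1.41 and 0.52 in intact PBS at its called probe, and rose by 0.90 ± 0.19 (adjusted p = 0.0115). Its other probes gave 0.56 ± 0.18 (adjusted p = 0.0557) and 0.44 ± 0.32 (adjusted p = 0.391). Mirg, a microRNA host of the same locus, rose by 1.02 ± 0.30 (adjusted p = 0.0438), a call lost for 10 of 12 arrays left out, and Igf2os rose by 0.28 ± 0.08 (adjusted p = 0.0308), a call lost for 4 of 12 arrays left out. With the mimic 11 of the 12 probes had a negative difference and 0 were called, at a median of -0.265 against 0 over all kept probes. Meg3 read 1.11, 1.12 and 1.09 there at the same probe, all below the PBS arrays, with -0.82 ± 0.19 (adjusted p = 0.0971), and its other probes gave -0.64 (adjusted p = 0.15) and -0.88 (adjusted p = 0.295). The median fibroblast marker level was -0.715 to -0.363 with the mimic and -0.033 to 0.363 in incised PBS, with 1 of 6 markers called lower, and its part was not tested. Under antimiR-29 2 imprinted probes fell (all kept probes lower 6.03%): Airn, as above, and Kcnq1ot1, the silencing antisense RNA of the Kcnq1 domain, by 0.66 ± 0.11 (adjusted p = 0.00401), with -0.34 ± 0.14 at its other probe (adjusted p = 0.163); with slide as a fixed term the first gave -0.58 (adjusted p = 0.0568). H19 was not called in any comparison.

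The snoRNA hosts, whose introns carry small nucleolar RNAs, had 13 genes with 16 kept probes. After incision 13 of the 16 differences were negative, with a median of -0.236, but 1 was called (all kept probes lower 5.6%), Snhg16 at -0.33 ± 0.10 (adjusted p = 0.0446), and 11 of 12 arrays left out ended that call. Of 8 probes for microRNA hosts, antimiR-29 raised 1, Dleu2, as above (all kept probes higher 5.08%), and lowered 1 (6.03%), Mir22hg, by 0.45 ± 0.11 (adjusted p = 0.0264), a call lost for 4 of 12 arrays left out and with slide as a fixed term (-0.52, adjusted p = 0.0771). Of 10 probes for immune-linked non-coding RNAs, the mimic raised 1, antimiR-29 raised 4 and incision raised 2, with 0 lower in each (all kept probes higher: 0.177%, 5.08% and 9.58%). Besides Mirt1, Mirt2 and Gas5, which is held in this list too, antimiR-29 raised AW112010, an interferon-induced transcript, which read 2.12, 2.16 and 2.79 in intact PBS and 2.96, 3.17 and 2.99 with antimiR-29 (0.68 ± 0.17, adjusted p = 0.0265); the highest PBS value was that of replicate 3, and with slide as a fixed term the difference was 0.25 (adjusted p = 0.358). The X-inactivation lncRNA Ftx, at 2 probes, and the small structural RNAs Rmrp, Rn18s and Terc were called in 0 comparisons.

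Pseudogenes and antisense transcripts could be set beside their partners. Gpr137b-ps rose under antimiR-29 at both probes, by 0.48 ± 0.09 (adjusted p = 0.00958) and 0.57 ± 0.09 (adjusted p = 0.00221), and Gpr137b itself rose by 0.574 (adjusted p = 0.00216). Tdg-ps2 read -0.83, -0.62 and -1.10 in intact PBS and -1.46, -1.50 and -1.62 with antimiR-29 and fell by 0.68 ± 0.14 (adjusted p = 0.0105); Tdg, a DNA glycosylase whose messenger RNA is a known target of miR-29, had a difference of -1.10 (adjusted p = 0.00401). Smarca5-ps fell at 2 probes, by 0.88 ± 0.16 (adjusted p = 0.00689) and 0.64 ± 0.13 (adjusted p = 0.0105), and gave 0.29 ± 0.11 at the other (adjusted p = 0.119), while Smarca5 differed by -0.058 (adjusted p = 0.705). With slide as a fixed term the larger Smarca5-ps fall was -0.65 (adjusted p = 0.103). A probe may also bind the parent's messenger RNA, so these pairs are not independent measurements. Of 38 probes for transcripts named as opposite strand of a gene, a partner was kept for 36. Calls among the 38 were 0 under the mimic, 1 under antimiR-29 and 6 after incision (all kept probes: 0.503%, 11.1% and 15.2%); transcript and partner were both called in 2 cases, both after incision. Igf2os rose with Igf2 (0.28 and 1.66), and Map2k3os fell with Map2k3 (-0.65 and -0.59). The signs of transcript and partner were the same for 19, 21 and 19 of the 36 in the mimic, antimiR-29 and incision comparisons.

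The effect of the mimic in incised skin and that of the inhibitor in intact skin differed for 7 NR_ probes (0.945%), 4 with a positive difference (0.54%, all kept probes 1.07%) and 3 with a negative one (0.405%, all kept probes 0.483%), against 1.62% of NM_ probes and a background of 1.55%. All 7 were called under antimiR-29 and 0 under the mimic. Rbakdn, Rnu2-10 and Gm10791 rose with the inhibitor, while their mimic differences were 0.05, -0.27 and 0.07, and 1700022A21Rik, Gm11213, Phxr4 and Rreb1 fell with it, against -0.44, -0.18, 0.02 and 0.20. The Rreb1 probe was not well above background on any antimiR-29 array and was at least 1.57-fold lower there. That bound sets the normalized Cy5 signal, which also depends on Cy3 through the loess step, against the lowest signal well above background. The NM_ probes of Rreb1 gave -0.26 and -0.06. For Mirt1 the difference between the effects was 0.55 (adjusted p = 0.215), and for Mrln it was -0.68 (adjusted p = 0.266). The 2 oligonucleotides were given in different skin, so agent and skin cannot be told apart in this comparison. The count was 3 without incised PBS replicate 1 or 3, 4 without mimic replicate 2, mimic replicate 3 or antimiR-29 replicate 2, and 19 without intact PBS replicate 3.

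The letters of the miR-29 seed were searched in the 60-base probes, which cover only a small stretch of each transcript. The complement of the seed, TGGTGCT, was in 4 of 741 NR_ probes (0.54%) and 134 of 21185 NM_ probes (0.633%), on the transcript strand. Of the 4 NR_ probes 0 were called under the mimic or antimiR-29, and their differences under antimiR-29 ran from -0.34 to 0.26. Of the 134 NM_ probes 0 were called under the mimic, and 14 were called higher and 4 lower under antimiR-29 (all NM_ probes: 5.41% and 6.43%). Whether these shares differ was not tested. The seed letters themselves, AGCACCA, were in 3 NR_ (0.405%) and 76 NM_ probes (0.359%). Among the 3 is Rbakdn, whose probe shares the run AGCACCATTT with miR-29b and miR-29c, 10 bases, and which was called higher under antimiR-29; the others, 2900041M22Rik and Gm15348, gave 0.17 (adjusted p = 0.51) and 0.05 (adjusted p = 0.789). The NM_ probe of Htt holds the same run and gave 0.25 (adjusted p = 0.259). The NM_ probe of Klhdc1 shares 10 bases with miR-29a in the same orientation and gave -1.02 under antimiR-29 (adjusted p = 0.000787). Of the 76 NM_ probes with the seed letters, 4 were called higher and 12 lower under antimiR-29, at a median of -0.064. All NM_ probes had 5.41% higher and 6.43% lower. A match is a description of letters, and cross-hybridisation of the injected oligonucleotides was not tested.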

How the data were processed

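Total RNA of mouse skin was hybridised to 12 2-colour Agilent arrays, with skin in Cy5 and reference RNA in Cy3 on every array and no dye swap, so that a dye effect does not cancel within an array but is shared by the groups. Intensity values per spot were produced with Agilent Feature Extraction 11.5.1.1, per the file headers; that program's log10 ratio of Cy5 over Cy3 is deposited beside them and was used only for checks. The authors also deposited a table of log2 values by gene name, with scale and centring not given in the sources used here. Set against the scanner log ratios it ran as skin over reference (r of 0.9989 or more on each array), although its title names the dyes in the opposite order; its column medians were -0.041 to 0.

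The mean and local background intensities were corrected with normexp (offset 50) and normalized within arrays by loess in limma 3.58.1 (R 4.3.3), with control spots at weight 0, outlier spots left out and no scaling between arrays. Spots of a probe were averaged. Only the fold bound given for Rreb1 used a further quantile normalization of mean intensities between arrays. Probes well above background in Cy5 on 3 or more of 12 arrays were fitted with lmFit and eBayes over all 4 groups, and p-values were adjusted over all kept probes in each comparison; the fit was tested on simulated data made from these arrays. The precision is limited by 3 arrays a group. Standard errors come from the fit. Levels of marker lists are medians of log2 ratios centred on the mean of the 12 arrays. Names and biotypes came from RefSeq (GRCm38.p6) for 1359 of 1426 probes by accession, 40 by gene name and 21 by synonym, and 6 kept the file's name; positions are mm9, as in the scanner files.

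The members, lists and tests were chosen with earlier results of these data known. Named genes are up to 8 called probes each way, largest first, among those whose groups do not overlap, 1 for each gene name (up to 4 in the difference of effects, and the 4 of smallest p each way under the mimic), all Mirt1 probes and up to 4 listed members of smallest p; Phxr4 and Dnm3os under antimiR-29, Neat1, H19, Igf2os, Map2k3os and the partners of pseudogenes and antisense transcripts were named for their identity or after their values were seen. For probes picked by size, other than in the difference of effects, groups without overlap were thus fixed by the choice. Alternatives covered the background correction, scaling, probe filter, slide, replicate block, Cy5 alone, the extraction program's processed signals and the deposited table.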

Additional observations from a re-analysis of the deposited data

Results flagged for a closer look

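For 7 NR_ probes the mimic effect in incised skin minus the inhibitor effect in intact skin passed the test of the difference in limma, each with 3 arrays in each of the 4 groups. The difference was 1.18 ± 0.21 log2 for 1700022A21Rik (adjusted p = 0.0239), 0.85 ± 0.17 for Rreb1 (adjusted p = 0.0335), 0.83 ± 0.15 for Gm11213 (adjusted p = 0.0248) and 0.65 ± 0.10 for Phxr4 (adjusted p = 0.0117), all of which were lower with antimiR-29. It was -1.27 ± 0.23 for Rnu2-10 (adjusted p = 0.0243), -1.15 ± 0.13 for Rbakdn (adjusted p = 0.00405) and -0.83 ± 0.12 for the downstream probe of Gm10791 (adjusted p = 0.00935), which were higher with antimiR-29. The upstream probe of Gm10791 gave -0.45 ± 0.13 (adjusted p = 0.121). None of the 7 differences kept its call with slide as a fixed term or after scaling between arrays; those of Rbakdn, Phxr4 and Gm10791 held with each array left out in turn.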

How the results depend on the processing

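With slide as a fixed term 0 NR_ probes were called after incision (77 at an unadjusted p under 0.05 in limma), 0 under the mimic (45) and 0 in the difference of effects (78); under antimiR-29 it gave 62, of which 28 were shared; with slide as a random block the calls were 2 under the mimic, 53 under antimiR-29, 66 after incision and 6 in the difference. After scaling between arrays the calls were 1, 31, 53 and 0 (97 at an unadjusted p under 0.05) in the same order. From Cy5 alone 1 was called under the mimic, 63 after incision and 3 in the difference. The deposited table gave 0 under the mimic (76 unadjusted), 40 under antimiR-29 and 64 after incision. A fit of only the groups compared gave 9, 18 and 48. The processed signals gave 18 in the difference, and trend with robust variance 12, over the 725 NR_ probes measured on all arrays. With the replicate block calls were 3, 53, 88 and 7, but the numbers did not pair the arrays: deviations of same-numbered arrays correlated at 0.291, -0.332 and -0.374 for the mimic, 0.12, -0.111 and 0.0544 for antimiR-29 and 0.121, -0.253 and -0.43 for incision. Leaving out each array gave 0 to 7, 34 to 61, 56 to 98 and 3 to 19; without incised PBS replicate 1 or 3 the mimic count was 0, with 49 and 62 at an unadjusted p under 0.05. Without genes now annotated as protein-coding, an alternative chosen after seeing the data, calls were 2, 60, 93 and 5. The NR_ minus NM_ share called was -0.2 percentage points under the mimic (-0.972 in a fit of only the groups compared), -3.34 under antimiR-29 and -2.68 after incision (-5.35 with no filter on dim probes); it ran from -0.972 to 0.216, from -4.37 to -1.11 and from -5.35 to -0.0425. Of 59 named calls 34 held with each array left out in turn and 17 under every other alternative but slide as a fixed term, which kept 15. Among the antimiR-29 calls, Rbakdn, Rnu2-10, Gm10791, Norad, 1700022A21Rik and Gm11213 lost none. The deposited table gives 1 value for each gene name and none for single probes. Under antimiR-29 Gas5 gave -0.11 there (adjusted p = 0.694) and Tug1 -0.072 (adjusted p = 0.717). These are not readings of the called Gas5 probe or the upstream Tug1 probe, which rose. Dim spots limit what the arrays can show: 35.8% of NR_ probes were well above background on 0 arrays.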

Other observations

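Of the 685 NR_ probes not kept, 25 had a reference signal well above background on all 12 arrays. Their skin signal met that rule on fewer than 3 arrays. Without a dye swap, a lower level in skin and a difference between the dyes cannot be told apart for these probes. Conversely, 37 kept NR_ probes had a reference signal well above background on 0 arrays; for these the ratio rests on a Cy3 value near background. In a principal component analysis of the 725 NR_ probes measured on all arrays, the incised and intact arrays lay apart along the first component (46% of variance), while the second took 15.3%.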
